A study of Mus musculus with 6 samples.

Results

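The Ifi200 cluster is a run of related genes on mouse chromosome 1 that encode PYHIN proteins, named for a pyrin domain and a DNA-binding HIN domain. The members were the rows of the deposited count table with the symbols Aim2, Mndal, Ifi203, Ifi206, Ifi208, Ifi209, Ifi211, Ifi213 and Ifi214, 9 of 4162 genes listed. They were measured by RNA sequencing in CD4+ T cells of 3 WT and 3 UTX TCD mice on the B6 background. In UTX TCD mice the gene of UTX, Kdm6a, is deleted in T cells. UTX removes methyl groups from lysine 27 of histone H3. The sources used here do not give the Cre driver, the deleted exons or the ages. Naive CD4+ T cells of the spleen, isolated with a magnetic kit, received 48 h of stimulation in both genotypes, with anti-CD28 in solution and anti-CD3 fixed to the plate. Each library came from its own mouse.

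PYHIN proteins are best known as sensors of DNA and as products of interferon-induced genes. AIM2 binds double-stranded DNA in the cytosol through its HIN domain and recruits the adaptor ASC through its pyrin domain, which leads to activation of caspase-1 and release of interleukin-1 family cytokines. Other cluster members act in the nucleus on transcription or cell growth, and for several the function is poorly defined. The cluster is highly variable between mouse strains, and its genes arose by repeated duplication.

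Levels are in CPM, counts scaled to a common library size with TMM factors over the listed genes only. Column totals ran from 8363326 to 10288306 counts. The table holds part of the transcriptome, and its genes look selected on the genotype difference, since 20 of 4118 tested genes had a log2 fold change within 0.1 of 0. The Kdm6a level was 281 to 286 CPM in WT and 179 to 207 CPM in UTX TCD libraries, with no overlap. UTX TCD replicate 2 differed most from its group: the chi-square statistic per degree of freedom was 87.7 and 82.5 against replicates 1 and 3, and 19.9 between those 2. Values with and without this library are therefore given for the cluster genes.

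In GENCODE coordinates of build GRCm38, the 9 genes lay between positions 173350879 and 173942672 of chromosome 1, in the order Aim2, Ifi206, Ifi214, Ifi213, Ifi209, Ifi208, Mndal, Ifi211 and Ifi203. Aim2 (ENSMUSG00000037860), Ifi209 (ENSMUSG00000043263) and Ifi208 (ENSMUSG00000066677) are on the plus strand and the other 6 on the minus strand. The annotated span of Mndal (173849126 to 173942491) contains all of Ifi211 (173896345 to 173913046) and most of Ifi203 (173920407 to 173942672), on the same strand. Exons overlapped little: 155 of 3628 exon bases of Mndal (4.27%) and 37 of 6706 of Ifi203 (0.55%) were also exon of another gene on that strand, and no exon base of the other 7 genes was. Ifi204 and Ifi207, which lie within this span, were not analysed here, nor were other PYHIN genes outside the 9. The list of 11 further PYHIN symbols included Pyhin1, Pydc3 and Pydc4, other names of Ifi209, Ifi208 and Ifi213.

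Because the genes are paralogs, reads could be credited to the wrong one, and the sources used here do not say how the counting treated reads with several matches. Each member's GENCODE transcripts were split into stretches of 100 bases and looked up in the transcripts of every other gene. No stretch of Aim2 occurred elsewhere. In Ifi203, Ifi213, Ifi208, Mndal, Ifi214 and Ifi206 the share found in another gene was 2.84%, 3.30%, 5.92%, 6.38%, 7.29% and 13.1%, and in Ifi209 it was 16.9%, all of it shared with Ifi214. Ifi211 was the exception, with 56.9% of its stretches in another gene, 37.2% in Ifi205 and 19.6% in Ifi204. The value of Ifi211 is therefore uncertain, while most of the sequence of the other 8 genes is their own at this length. The read length is not stated.

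**Figure D1:**
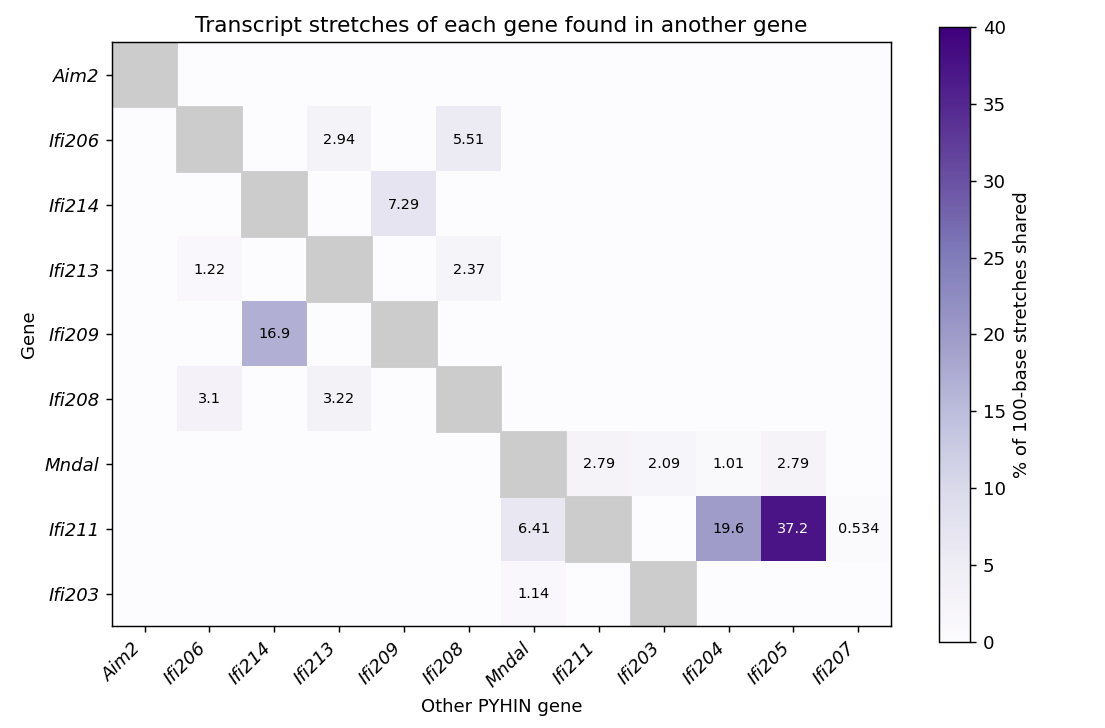
Share of the 100-base transcript stretches of each cluster gene (rows) that also occur in another PYHIN gene (columns), in percent, from GENCODE transcripts of GRCm38. Ifi211 shared 37.2% with Ifi205 and 19.6% with Ifi204, and the next largest share was 16.9% of Ifi209 in Ifi214. Grey cells are a gene against itself and empty cells are 0.

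The bases just before the transcription starts fell into families, shown here because most of the cluster genes had a near copy of their promoter at another member and carried the same motif. Sequences are from RefSeq on GRCm38.p6, whose promoter table held all 9 genes in 11 start windows. Over the 250 bases before the start, Ifi214 and Ifi209 were 94.4% identical, Mndal and Ifi203 89.3%, Ifi213 and Ifi208 87.9%, Ifi206 and Ifi208 86.2% and Ifi206 and Ifi213 75.6%. Aim2 was 46.0% to 52.4% identical to the other 8 genes and Ifi211 48.9% to 56.8%. The core of the interferon-stimulated response element, the site bound by interferon-activated transcription factors, was searched on both strands as GAAA, any 2 bases and GAAA again. It was present in 8 of the 11 windows (72.7%), against 2.98% of 32851 RefSeq promoter windows of the same length. Where a gene had more than 1 start, the window with a match on the gene's strand was used for the identities and the sequence shown. The other Ifi203 window, farther upstream, had 0 matches. Counted by gene, with a match in any window, 7 of the 9 genes had the motif. Several of the 7 have near-identical windows, so these are not independent occurrences. In 6 of the 7 the matched bases on the gene's strand were GAAATCGAAA, and in Ifi211 they were GAAATTGAAA. Aim2 and Ifi209 had no match. The stretch of Ifi209 aligned with the Ifi214 match differed from it by 1 substitution, G1T, with positions counted from the 5′ end of the match. TTCNNNGAA, the gamma-activated site core, which can share its GAA with that motif, was in 0 of the 11 windows and in 7.02% of all windows.

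Sequences of 6 genes follow, with both Ifi214 and Ifi209 to show the substitution, 5′ to 3′ on the gene's strand and ending at the base before the start, with the match in capitals. The windows are chr1:173673515-173673664 (plus strand) for Ifi208, chr1:173535958-173536107 (minus) for Ifi214, chr1:173630709-173630858 (plus) for Ifi209, chr1:173942493-173942642 (minus) for Ifi203, chr1:173913047-173913196 (minus) for Ifi211 and chr1:173420454-173420570 (plus) for Aim2. Capitals in Ifi209 mark the aligned stretch with the substitution. The Aim2 window, before a RefSeq start inside the gene's GENCODE span, stops short of an annotated exon. The Ifi203 window also lies before a RefSeq start inside that gene's GENCODE span, and was shown because it holds the match.
Ifi208: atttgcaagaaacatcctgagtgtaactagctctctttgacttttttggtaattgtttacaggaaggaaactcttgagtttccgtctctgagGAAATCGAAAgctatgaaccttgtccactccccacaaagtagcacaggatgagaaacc
Ifi214: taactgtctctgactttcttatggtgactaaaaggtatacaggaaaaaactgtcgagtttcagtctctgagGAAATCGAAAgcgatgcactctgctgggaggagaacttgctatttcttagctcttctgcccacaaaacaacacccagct
Ifi209: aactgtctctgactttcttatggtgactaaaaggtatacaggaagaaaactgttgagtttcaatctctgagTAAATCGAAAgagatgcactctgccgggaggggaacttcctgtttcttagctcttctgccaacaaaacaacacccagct
Ifi203: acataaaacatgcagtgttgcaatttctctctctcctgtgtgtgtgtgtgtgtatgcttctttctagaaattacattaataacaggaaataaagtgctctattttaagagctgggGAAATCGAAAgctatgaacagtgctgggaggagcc
Ifi211: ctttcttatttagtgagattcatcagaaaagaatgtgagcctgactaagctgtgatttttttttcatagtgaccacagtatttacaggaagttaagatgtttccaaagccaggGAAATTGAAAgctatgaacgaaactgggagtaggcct
Aim2: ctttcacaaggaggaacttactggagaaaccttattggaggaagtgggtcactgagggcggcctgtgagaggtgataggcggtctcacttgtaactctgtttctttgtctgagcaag
The first base of the match lay 58 bases before the start in Ifi208, 79 in Ifi214, 35 in Ifi203 and 37 in Ifi211. Among the 73 tested interferon-stimulated genes outside the cluster, 23 of 76 promoter windows (30.3%) held the same motif. It was in 3.16% of windows of genes called higher in UTX TCD cells, cluster genes left out, and in 2.92% of those called lower.

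The question of the comparison is which genes change in activated CD4+ T cells without UTX. In UTX TCD cells 7 of the 9 cluster genes were higher, 1 (Aim2) was lower and 1 (Ifi211) did not pass, at an adjusted p under 0.05 with edgeR's quasi-likelihood test. Over all 4118 genes tested, 41.1% were called higher and 27.0% lower, 68.1% in either direction, so a call by itself says little in this table. The sizes carry the same limit, since the listed genes look selected on the genotype difference. The median log2 fold change of the 9 genes was 3.01, beside -0.15 over all genes tested. Ifi208, Ifi213, Ifi209, Ifi206 and Ifi214 ranked 2, 7, 20, 22 and 31 from the top of the 4118. Ifi208 and Ifi213 passed the filter on low counts only through their UTX TCD libraries, so their calls, sizes and ranks are not support for a rise. The count of 7 and the median of 3.01 include them. Groups did not overlap in the same 8 genes, where 41.8% of all genes had every UTX TCD library above WT and 44.0% every one below. In bulk samples, a change in the share of a cell type and a change in RNA per cell cannot be told apart.

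**Figure D2:**
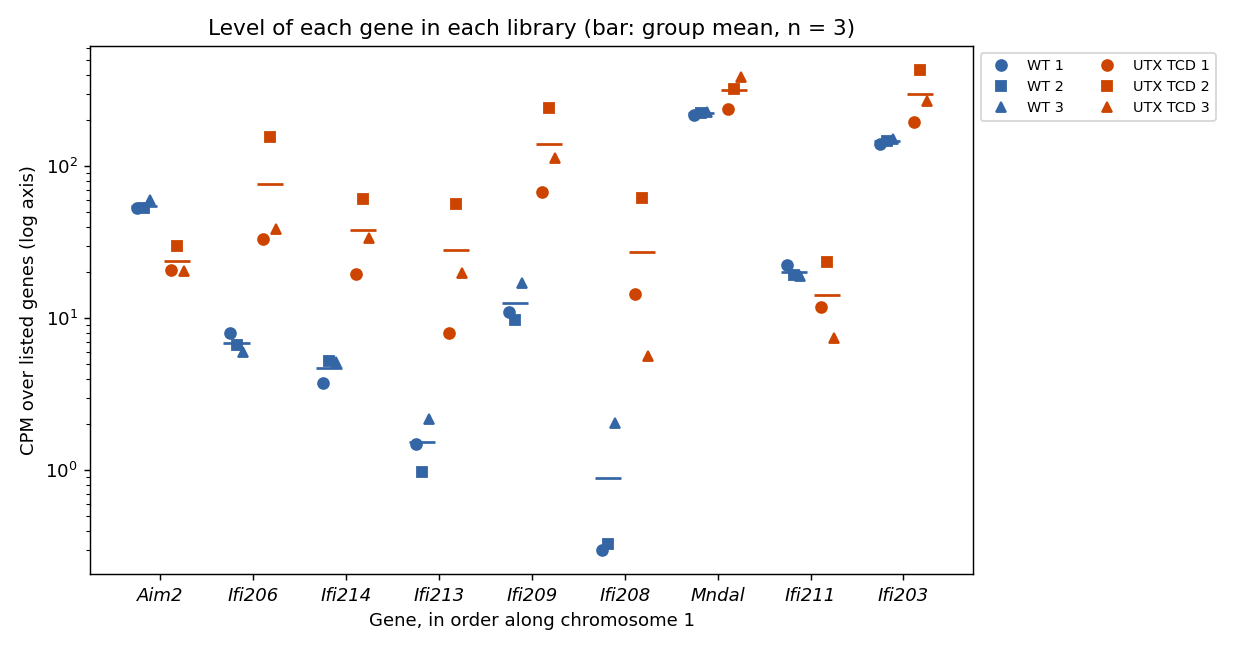
CPM over the listed genes (log axis) of each of the 9 genes in each of the 6 libraries, in order along chromosome 1, with WT in blue and UTX TCD in orange and a bar at each group mean (n = 3). UTX TCD libraries lie below WT in Aim2, overlap WT in Ifi211 and lie above WT in the other 7 genes, with replicate 2 (square) the highest UTX TCD library in 8 of 9.

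The large rises formed 1 unbroken run of 5 genes, from Ifi206 to Ifi208. Ifi209, also known as Pyhin1, had the highest mean level per length of these 5 in both genotypes. Its levels were 11.0, 9.76 and 16.9 CPM in WT and 68.0, 239.7 and 113 CPM in replicates 1, 2 and 3 of UTX TCD. Every UTX TCD library was above every WT library. The means were 12.6 ± 3.82 and 140.1 ± 89.1 CPM (SD, n = 3), a log2 fold change of 3.48 ± 0.48 (standard error, edgeR adjusted p = 0.0023). Without UTX TCD replicate 2 it was 2.84 (0.0011).

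Ifi214, whose promoter and part of whose transcript resemble those of Ifi209, had 3.76, 5.21 and 5.11 CPM in WT and 19.5, 60.5 and 33.4 CPM in UTX TCD libraries. The order of the UTX TCD libraries was that of Ifi209, with replicate 2 highest and replicate 1 lowest, and the groups were well apart. Its log2 fold change was 3.01 ± 0.42 (edgeR adjusted p = 0.0024), the smallest standard error of the 5, and 2.49 without UTX TCD replicate 2 (0.0014).

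Ifi206 and Ifi213, also listed as Pydc4, showed the same order of libraries. Ifi206 had 8.02, 6.62 and 6.02 CPM in WT and 32.9, 155.9 and 38.8 CPM in UTX TCD libraries. Replicate 2 was at 22.6 times the WT mean, and replicates 1 and 3 were at 4.78 and 5.63 times that mean, all apart from WT. Its log2 fold change was 3.46 ± 0.63 (edgeR adjusted p = 0.0051), and 2.37 without UTX TCD replicate 2 (4.9e-04), so this library moved its size and not its call. Ifi213 was scarce in WT, at 1.49, 0.98 and 2.16 CPM, and had 7.95, 55.9 and 19.7 CPM in UTX TCD libraries. All 3 UTX TCD values were above WT. Its log2 fold change was 4.17 ± 0.75 (edgeR adjusted p = 0.0050), and 3.16 without UTX TCD replicate 2 (0.0031).

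Ifi208, also listed as Pydc3, had the largest log2 fold change of the cluster and the largest standard error. Its counts were 3, 3 and 18 in WT and 120, 586 and 54 in UTX TCD libraries, or 0.30, 0.33 and 2.04 CPM against 14.5, 61.9 and 5.63 CPM. WT replicate 3 held most of the WT counts, and UTX TCD replicate 3, not replicate 1, was the lowest of its group. The log2 fold change was 4.96 ± 1.09 (edgeR adjusted p = 0.0092). Leaving out WT replicate 3 gave 6.40 and leaving out UTX TCD replicate 2 gave 3.50, past the threshold in both cases, so the size rests on single libraries.

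Ifi203 and Mndal, at the other end of the cluster, were abundant in WT and rose less. Ifi203 had 140.1, 146 and 149.8 CPM in WT and 194, 429 and 268 CPM in UTX TCD libraries, with no overlap. Its means were 145 ± 4.92 and 297 ± 119.9 CPM, and the log2 fold change of 1.03 ± 0.25 passed (edgeR adjusted p = 0.013). It was 0.66 without UTX TCD replicate 2 (0.0059). Its call did not hold without WT replicate 2 (log2 fold change 1.03, edgeR adjusted p = 0.05003).

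Mndal had 216, 224 and 226 CPM in WT and 237, 323 and 386 CPM in UTX TCD libraries. UTX TCD replicate 1 was barely above WT, and Mndal was the only one of the 9 genes in which replicate 3 and not replicate 2 was the highest. Its log2 fold change was 0.51 ± 0.16 (edgeR adjusted p = 0.029). Without UTX TCD replicate 2 it was 0.48 (0.046). The call did not hold without UTX TCD replicate 3 (0.34, edgeR adjusted p = 0.069) or without WT replicate 1, 2 or 3 (0.49 to 0.52, adjusted p = 0.070 to 0.086). The ratio of Ifi203 to Mndal counts, which no scaling touches, was 0.65, 0.65 and 0.66 in WT and 0.82, 1.33 and 0.69 in UTX TCD libraries. The groups did not overlap, but narrowly, with 0.664 in WT replicate 3 and 0.693 in UTX TCD replicate 3. That pair was not named in advance, and the difference in ratio was not tested.

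Aim2, the inflammasome sensor, went the other way. It had 52.7, 52.7 and 59.4 CPM in WT and 20.8, 29.8 and 20.4 CPM in UTX TCD libraries, so every UTX TCD library was below every WT library. The means were 54.9 ± 3.85 and 23.7 ± 5.30 CPM, and the log2 fold change was -1.21 ± 0.18 (edgeR adjusted p = 0.0027). Without UTX TCD replicate 2, the highest of its group here too, it was -1.42 (5.3e-04). Its nearest neighbour in the cluster is Ifi206, and the ratio of Ifi206 to Aim2 counts was 0.10 to 0.15 in WT and 1.58, 5.23 and 1.90 in UTX TCD libraries. That pair was chosen after its values were seen.

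Ifi211, which lies inside the span of Mndal, had 22.5, 19.1 and 19.0 CPM in WT and 11.8, 23.5 and 7.40 CPM in UTX TCD libraries. Replicates 1 and 3 were below WT and replicate 2 was above it, so the groups overlapped. Its log2 fold change of -0.50 ± 0.38 did not pass (edgeR adjusted p = 0.23). Without UTX TCD replicate 2 it was -1.08 ± 0.24 and passed (0.0093), so that 1 library decides the call, and then 2 cluster genes were lower and 7 higher. The ratio of Ifi203 to Ifi211 counts, also chosen after its values were seen, was 6.23 to 7.90 in WT and 16.5, 18.3 and 36.2 in UTX TCD libraries, apart in all 3. Its denominator is the uncertain value of Ifi211. In replicate 2 Ifi211 was above WT, so the larger ratio there rests on the level of Ifi203.

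**Figure D3:**
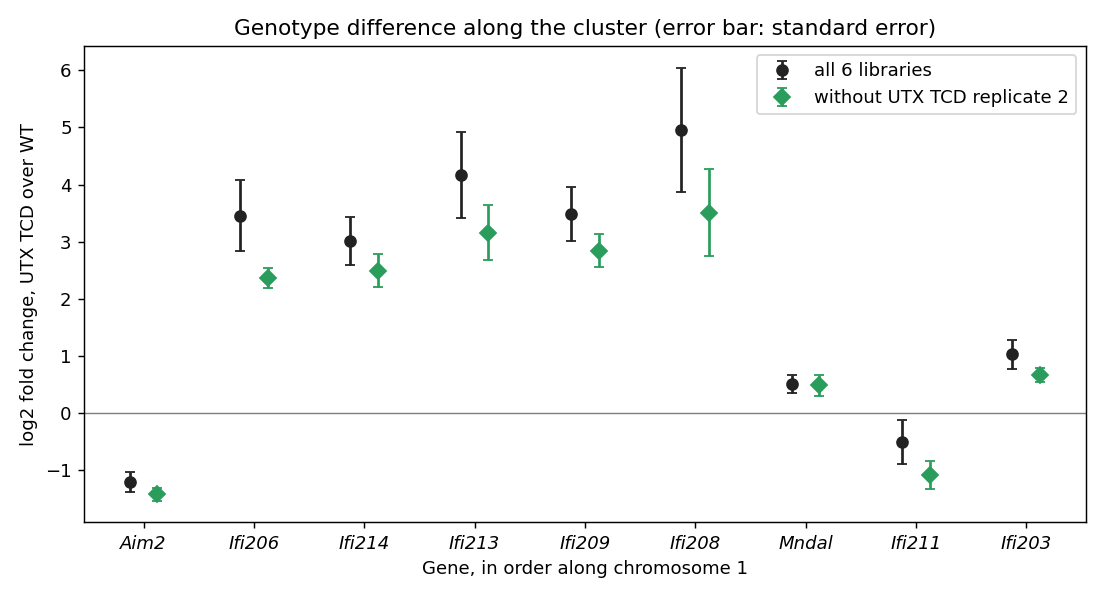
Log2 fold change of UTX TCD over WT (points, with standard errors) for the 9 genes in order along chromosome 1, with all 6 libraries (black) and without UTX TCD replicate 2 (green). The 5 genes from Ifi206 to Ifi208 lie between 3.01 and 4.96 with all libraries and between 2.37 and 3.50 without that library, and Aim2 is at -1.21 and -1.42.

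Per kilobase of annotated exon, which allows genes to be compared with each other, the cluster spanned a wide range in WT cells. Mndal was the highest at 61.2 ± 1.46 CPM per kilobase, followed by Ifi203 at 21.7 ± 0.73, Aim2 at 15.7 ± 1.10 and Ifi211 at 11.3 ± 1.12. Those 4 did not overlap in their spread. The 5 genes of the run had lower levels, from Ifi209 at 3.54 ± 1.08 and Ifi206 at 2.25 ± 0.34 to Ifi214 at 0.58 ± 0.10, Ifi213 at 0.23 ± 0.09 and Ifi208 at 0.17 ± 0.19, where neither Ifi209 and Ifi206 nor Ifi213 and Ifi208 differed beyond their SDs. In UTX TCD cells Mndal (87.0 ± 20.6) and Ifi203 (44.3 ± 17.9) were still first, Ifi209 (39.5 ± 25.1) and Ifi206 (24.8 ± 22.7) came next, and Ifi211 (7.97 ± 4.65) and Aim2 (6.77 ± 1.51) followed. Ifi208 (5.20 ± 5.76), Ifi214 (4.66 ± 2.57) and Ifi213 (4.07 ± 3.66) were last. Mndal and Ifi203 differed beyond their SDs, and no other neighbours in that order did. The annotation used for these lengths may differ from that of the counts.

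The share of all listed counts that fell on the 9 genes together was 0.045%, 0.046% and 0.049% in WT libraries and 0.060%, 0.142% and 0.090% in UTX TCD libraries. In WT this sum rests mostly on Mndal and Ifi203. It does not depend on how reads were divided among the 9 genes. Reads given to paralogs outside them, such as Ifi204 and Ifi205, are not in it. Any reads dropped for matching several genes are not in it either.

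Within both genotypes the median variation of the 9 genes was above that of the whole table, though not for each gene. Their median coefficient of variation was 14.97% in WT and 58.4% in UTX TCD libraries, beside 5.97% and 14.3% over all genes tested. For Mndal the coefficient was 2.39% in WT and 23.7% in UTX TCD libraries and for Ifi203 3.39% and 40.4%, so in WT both were below the all-gene median. For Ifi208, with WT counts of 3, 3 and 18, it was 113% and 111%. The genes were not matched for level in this comparison. The level in replicate 2 divided by the mean of replicates 1 and 3 had a median of 2.44 over the 9 genes and 0.99 over all genes, and ran from 1.04 in Mndal and 1.44 in Aim2 to 4.35 in Ifi206 and 6.17 in Ifi208. So genes that rose, Ifi211 and the gene that fell were all higher in replicate 2 than in the mean of the other UTX TCD libraries. With the genotype means taken off, the Pearson correlation of Aim2 with the mean standardised profile of the other 8 genes over 6 libraries was 0.93, while on the levels themselves it was -0.69. For Ifi203 these values were 0.97 and 0.99, and for Mndal 0.29 and 0.67. The points share their libraries, so the values describe these 6 libraries only.

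**Figure D4:**
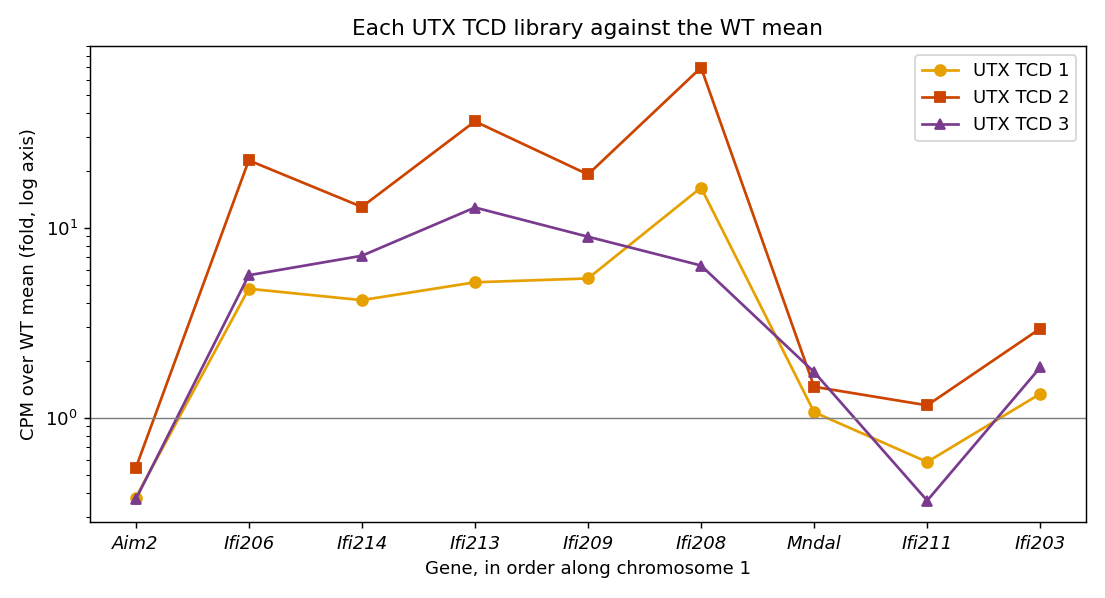
CPM of each UTX TCD library divided by the WT mean (log axis), for the 9 genes in order along chromosome 1, with the grey line at equal levels. Replicate 2 is the highest in every gene except Mndal, replicates 1 and 3 still reach 4.16 to 16.3 times the WT mean in the run from Ifi206 to Ifi208, and all 3 libraries are under the line for Aim2.

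The rises in the run were set beside those of other interferon-stimulated genes. Of the 110 such genes listed outside the cluster, 73 were tested. Among these, 50 were higher, 5 lower and 18 not called, with a median log2 fold change of 0.88. The shares over all genes tested were 41.1% higher and 27.0% lower. Replicate 2 was the highest UTX TCD library in 64 of the 73, with a median of 1.80 times the mean of replicates 1 and 3. With all 6 libraries, 0 of the 73 had a larger log2 fold change than Ifi208, 2 than Ifi213, 4 than Ifi209, 4 than Ifi206 and 6 than Ifi214. Without UTX TCD replicate 2 the list had 49 higher and 7 lower genes and a median of 0.48, while the median of the 9 cluster genes was 2.37. In that fit none of the 73 genes had a larger log2 fold change than Ifi208, Ifi213, Ifi209 or Ifi214, and 1, Rtp4 at 2.47, had a larger one than Ifi206. Rtp4 was named after its values were seen. The places of Ifi208 and Ifi213 rest on UTX TCD libraries that also carried them past the filter on low counts. The 4 called genes of this list with the smallest p were Ms4a4b at 1.88 ± 0.29, Ms4a6b at 1.19 ± 0.20, the antiviral gene Ifit2 at 0.82 ± 0.15 and Nlrc5, the transactivator of MHC class I genes, at 0.56 ± 0.10.

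Genes that act with AIM2 in the inflammasome and in lytic cell death were listed separately, and 8 of 26 were tested. All 8 were called, 5 higher and 3 lower, with a median of 0.44. Among all genes tested, 68.1% were called, 41.1% higher and 27.0% lower. Il1a, a cytokine of the interleukin-1 family, fell from 6.81 to 11.5 CPM in WT to 0.74 to 1.57 CPM in UTX TCD libraries (log2 fold change -3.02 ± 0.38). Casp4, a sensor of cytosolic lipopolysaccharide, was lower at -1.05 ± 0.24. The cell death genes Casp8 and Ripk3 rose slightly, by 0.37 ± 0.08 and 0.51 ± 0.12. Casp1, the protease that AIM2 inflammasomes activate, was chosen after its values were seen. It had 16.8 to 23.5 CPM in WT and 8.07, 4.44 and 15.2 CPM in UTX TCD libraries (-1.16 ± 0.41, edgeR adjusted p = 0.038). Every UTX TCD library was below WT, as for Aim2 and for 44.0% of all genes tested. Gsdmd, which forms the pyroptotic pore, was at 0.75 ± 0.26 (edgeR adjusted p = 0.035), its groups overlapped, and it lost its call when UTX TCD replicate 2 was left out (0.43, 0.069). Pycard, Il1b, Il18 and Nlrp3 were not analysed here.

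In the wider list of cytosolic DNA sensing, 8 of 16 tested genes were higher, 2 lower and 6 not called, at a median of 0.41. The shares over all genes tested were 41.1% higher and 27.0% lower. Tmem173, the gene of STING, fell from 492 to 537 CPM in WT to 193 to 256 CPM in UTX TCD libraries (log2 fold change -1.18 ± 0.12, edgeR adjusted p = 7.6e-04). Nlrc3, a negative regulator of STING signalling, rose by 1.45 ± 0.17, Samhd1, a nucleotide hydrolase, by 0.97 ± 0.20 and the ubiquitin ligase gene Trim56 by 0.81 ± 0.18. Aim2 and Tmem173, which act in separate DNA sensing pathways, were both lower in every UTX TCD library than in every WT library. So were 44.0% of all genes tested.

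Interferon receptors and their signalling genes, which drive the response the cluster belongs to, had 9 higher, 3 lower and 3 uncalled of 15 tested (median 0.45). Over the whole table of tested genes, 41.1% were higher and 27.0% lower. Irf2 rose by 0.75 ± 0.11, while Irf8 changed by -1.28 ± 0.22 and Ifng, the gene of interferon gamma, by -1.91 ± 0.33.

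The genes of the table nearest to the cluster were lower in UTX TCD cells. Within 1 Mb on either side, 72 annotated genes are not members, and 3 of them were in the table, all on the side of Aim2. Slamf9 had 4.23 to 4.46 CPM in WT and 0.11 to 0.83 CPM in UTX TCD libraries (log2 fold change -3.28 ± 0.54), Igsf9 12.8 to 20.7 and 1.80 to 4.06 CPM (-2.38 ± 0.35), and Tagln2 1403 to 1504 and 1099 to 1254 CPM (-0.30 ± 0.08). All 3 were called lower, as were 27.0% of all genes tested. The others were not analysed here.

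The genes whose level over the 6 libraries was most like the mean standardised profile of the cluster, among 3874 tested genes with an average log2 CPM of 2 or more, were Gtpbp2, Ankzf1, Shisa5, Ccser2 and Acads, at Pearson correlations of 0.997 to 0.999. A correlation of 0.9 or more was reached by 813 of the genes, so this likeness was common among the listed genes. With genotype means taken off, the 5 nearest were Zbp1, Unc93b1, Tapbp, Gtpbp2 and Ascc1 (0.997 to 1.00), and 456 genes reached 0.9. Zbp1, a sensor of Z-form nucleic acid, had 183 to 213 CPM in WT and 218, 482 and 267 CPM in UTX TCD libraries.

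Markers of other cells that express PYHIN genes were looked at beside these results. Of 25 myeloid and dendritic cell markers 1, Sirpa, was tested, with 1.14 to 2.18 CPM in WT and 0.11 to 1.04 CPM in UTX TCD libraries. It was not called (edgeR adjusted p = 0.057), with counts of 4, 1 and 10 in UTX TCD libraries. Its UTX TCD levels were all below WT, as were those of 44.0% of all genes tested. Of 15 B cell markers 3 were tested, summing to 458 to 554 CPM in WT and 488 to 786 CPM in UTX TCD libraries, with 1 lower and none higher. Of 11 markers of NK, CD8 and gamma-delta T cells 4 were tested, summing to 35.8 to 77.1 CPM in WT and 59.8 to 113 CPM in UTX TCD libraries, and Cd8b1 (1.72 ± 0.24) and Tcrg-C1 (2.61 ± 0.47) were higher. Among all genes tested, 41.1% were higher and 27.0% lower. The part of these markers in the cluster's values was not tested. Of 15 T cell markers 5 were tested, and Cd28, Cd2, Lat and Lck were at 492 CPM or more in every library, while Thy1 fell from 718 to 887 to 42.9 to 77.6 CPM. Cd3e and Cd4 were not analysed here.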

How the data were processed

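RNA was sequenced from 6 libraries, 1 per mouse. The deposited table gives raw read counts by gene symbol, which the authors made with FastQC, HISAT2 and HTSeq on build mm10, per the submitters' processing notes. The sources used here do not give versions, annotation, strand setting, read length or the rule by which the 4162 genes were chosen. The adjusted p-values count only genes in the table, and the scaling rests on genes that mostly differ.

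Genotype was tested with edgeR 4.0.16 (R 4.3.3) by its quasi-likelihood F test on all genes, with TMM scaling, the default filter (minimum count 10, minimum total 15, 44 genes left out) and Benjamini-Hochberg adjustment over 4118 genes. All 9 cluster genes passed the filter. Ifi208, with WT counts of 3, 3 and 18, and Ifi213, with 15, 9 and 19, did so only through their UTX TCD libraries. The fit was checked on simulated data in which most genes did not differ between genotypes. The listed genes mostly do, so that check does not cover the scaling here. Standard errors are the absolute log2 fold change over the square root of F. Alternatives were RLE, upper-quartile and gap-centred scaling, no filter, DESeq2 1.42.0, limma-voom (limma 3.58.1), a replicate block, adjustment over all 21951 annotated protein-coding genes, and each library left out. Named are all 9 cluster genes, up to 4 called genes of each list with the smallest p, table genes within 1 Mb and the 5 most like genes. One result this rule names is not reported here. The members and lists were chosen with earlier results of these data known.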

Additional observations from a re-analysis of the deposited data

How the results depend on the processing

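All 9 cluster genes kept their sign under each of the 14 alternatives, and the calls of Aim2, Ifi206, Ifi214, Ifi213, Ifi209 and Ifi208 held in each, with adjusted p-values of at most 0.049. Higher cluster genes numbered 7 with each scaling, no filter, DESeq2, limma-voom and the replicate block, and 5 after adjustment over all 21951 annotated protein-coding genes, where Mndal (adjusted p = 0.15) and Ifi203 (0.071) did not pass. They numbered 5 to 7 with 1 library left out. Lower cluster genes numbered 1 to 2 with 1 library left out. Over all genes, calls were 60.4% higher with TMM, 67.2% with RLE, 70.6% with upper-quartile (1742 higher, 725 lower) and 45.8% with gap-centred scaling (1547 and 1832), which puts the emptiest point of the log2 fold changes, 0.075, at 0. After adjustment over 21951 genes 630 were higher and 296 lower. With 1 library left out, 730 to 1824 were higher and 351 to 1458 lower, and the low values came without WT replicate 2 (730, 351), 1 (812, 402) or 3 (1195, 544). The cause was not tested. The replicate block gave 1607 higher and 1026 lower genes and changed no call in the cluster. Deviations of same-numbered libraries correlated at 0.28, -0.28 and 0.18, so the numbers were not taken as pairs. Counts of 3 in 2 WT libraries limit Ifi208.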
